A study of Bos taurus with 8 samples.

Results

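The troponins and tropomyosins of the thin filament were examined as a family of 10 genes: *TNNC1* and *TNNC2* (troponin C), *TNNI1* and *TNNI2* (troponin I), *TNNT1*, *TNNT2*, and *TNNT3* (troponin T), and *TPM1*, *TPM2*, and *TPM3* (tropomyosin). Members were chosen by name, with earlier results of these data known, and were located through the RefSeq accession given for each probe. A matched probe was found for 5 of the 10 genes, with 1 probe per gene printed as 2 spots per array: *TNNC1* (NM_001034351), *TNNC2* (NM_001076373), *TNNT1* (NM_174474), *TNNT2* (NM_174771), and *TPM1* (NM_001013590). The remaining 5 genes, *TNNI1*, *TNNI2*, *TNNT3*, *TPM2*, and *TPM3*, were not analysed here. All 5 matched probes were among the 17631 tested out of 21475 on the array.

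The cells were primary cultures from the semitendinosus, a hind limb muscle, of 15-month-old bulls of the beef breeds Limousin (abbreviated LIM) and Hereford (abbreviated HER) and of the dairy breed Holstein Friesian (HF), the reference, with 4 bulls per breed. The cultures were enriched for myoblasts by preplating, were not pure, and were frozen while still proliferating, at 80% confluence. Each of 8 two-colour arrays carried beef breed RNA in a first dye and HF RNA in the other: 4 LIM arrays (LIM in Cy5, HF in Cy3) and 4 HER arrays (HER in Cy3, HF in Cy5), and the labels call the 4 arrays biological replicates. With 4 HF bulls for 8 arrays, HF bulls recur between arrays. The pairing of HF bulls with arrays is not given, so both comparisons may share HF cultures. Each comparison has its own slide and its own dye orientation, which cannot be told apart from breed within it.

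Troponin and tropomyosin lie along the actin filament of striated muscle and make contraction depend on calcium. Troponin C binds calcium, troponin I holds the actin and myosin interaction off at rest, and troponin T anchors the complex to tropomyosin, the coiled coil that covers the myosin binding sites of actin. Most of these subunits are encoded by separate genes for slow fibres, fast fibres, and heart, and *TNNT2*, the cardiac troponin T gene, is also used by embryonic and regenerating skeletal muscle.

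All 5 measured genes had a log2 ratio of beef over HF above 0 on 8 of 8 arrays, as did 11.7% of all tested probes. For *TNNT1* on HER replicate 3, neither channel was well above background. Relative to HF, the means lay between 4.87-fold (*TPM1*) and 13.3-fold (*TNNC2*) in LIM and between 4.38-fold (*TPM1*) and 13.0-fold (*TNNT2*) in HER. A gene was called at a Benjamini-Hochberg adjusted p of at most 0.05 over all tested probes (limma) together with a fold change of at least 1.3. By this rule 5 of 5 genes were called higher in LIM, where 16% of all tested probes were called higher and 34.3% were called in either direction. In HER 5 of 5 were called higher, against 10.4% of all tested probes called higher and 24.4% in either direction. Both calls held for all 5 genes, as for 7.54% of all tested probes. The median log2 ratio of the 5 genes was 3.57 in LIM and 2.51 in HER, compared with -0.01 and -0.06 over all tested probes. Because RNA came from whole cultures, a larger share of cells expressing a gene and more RNA of it per cell cannot be told apart.

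**Figure D1:**
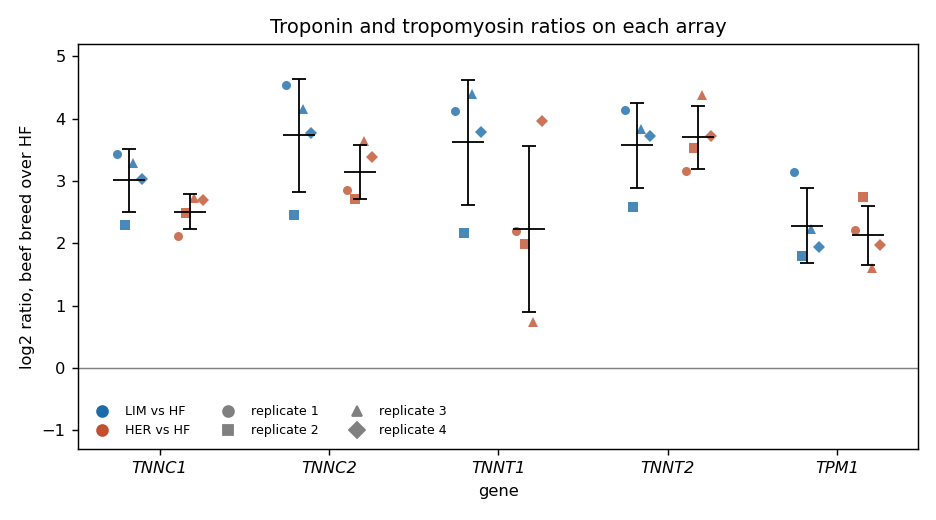
Log2 ratio of beef breed over HF (vertical axis) for each measured gene (horizontal axis) on each of 4 LIM arrays (blue) and 4 HER arrays (orange), with symbols for replicates and black bars for the mean ± SD. All 40 points lie above 0, the lowest being *TNNT1* on HER replicate 3 at 0.73 and the highest *TNNC2* on LIM replicate 1 at 4.53.

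The calcium-binding subunit was measured in both of its forms. *TNNC1*, the troponin C of slow fibres and heart, had log2 ratios of 3.43, 2.29, 3.29, and 3.03 on LIM replicates 1 to 4 and of 2.12, 2.49, 2.73, and 2.69 on HER replicates 1 to 4. LIM replicate 2 was the lowest LIM array, and the LIM and HER ranges overlapped. The mean was 3.01 ± 0.51 (SD, n = 4; 8.07-fold; limma adjusted p = 0.000337) in LIM and 2.51 ± 0.28 (SD, n = 4; 5.69-fold; limma adjusted p = 0.00101) in HER.

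*TNNC2*, the fast fibre troponin C, had log2 ratios of 4.53, 2.46, 4.16, and 3.78 in LIM and of 2.85, 2.72, 3.63, and 3.39 in HER. LIM replicate 2 was again the lowest, below every HER array, while LIM replicates 1, 3, and 4 were above every HER array. The mean was 3.73 ± 0.90 (SD, n = 4; 13.3-fold; limma adjusted p = 0.000522) in LIM and 3.15 ± 0.43 (SD, n = 4; 8.86-fold; limma adjusted p = 0.00217) in HER. Counted from the highest mean ratio of 17631 probes, *TNNC2* ranked 28 in LIM and 32 in HER, and *TNNC1* ranked 81 and 88.

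Of the genes for troponin T, the slow fibre gene *TNNT1* was the most variable. Its log2 ratios were 4.13, 2.17, 4.40, and 3.79 in LIM and 2.20, 1.99, 0.73, and 3.97 in HER. HER replicate 4 lay among the 3 higher LIM arrays, whereas HER replicate 3 was far below the rest. The mean was 3.62 ± 1.00 (SD, n = 4; 12.3-fold; limma adjusted p = 0.00145) in LIM and 2.22 ± 1.33 (SD, n = 4; 4.67-fold; limma adjusted p = 0.0171) in HER. The HER call was lost without HER replicate 1 (2.23, limma adjusted p = 0.0656) or without HER replicate 2 (2.30, limma adjusted p = 0.0608), and over the arrays left out in turn the HER mean ranged from 1.64 to 2.72.

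*TNNT2*, the cardiac and embryonic form, had log2 ratios of 4.15, 2.59, 3.83, and 3.72 in LIM and of 3.17, 3.53, 4.38, and 3.72 in HER. The ranges overlapped, and the highest value, on HER replicate 3, was on the array where *TNNT1* was lowest. The mean was 3.57 ± 0.68 (SD, n = 4; 11.9-fold; limma adjusted p = 0.000475) in LIM and 3.70 ± 0.51 (SD, n = 4; 13.0-fold; limma adjusted p = 0.000942) in HER. *TNNT2* ranked 36 in LIM and 15 in HER, and *TNNT1* ranked 33 and 143.

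*TPM1*, a tropomyosin gene used by fast fibres and heart, had the smallest mean scanner ratio of the 5 genes in both breeds. Lower than *TPM1* were *TNNC1* and *TNNT1* on HER replicate 1, *TNNC1*, *TNNC2*, and *TNNT1* on HER replicate 2, and *TNNT1* on HER replicate 3. The log2 ratios of *TPM1* were 3.15, 1.80, 2.24, and 1.95 in LIM and 2.21, 2.74, 1.61, and 1.97 in HER. LIM replicate 1 was the highest of the 8 arrays and HER replicate 3 the lowest. The mean was 2.28 ± 0.61 (SD, n = 4; 4.87-fold; limma adjusted p = 0.000768) in LIM and 2.13 ± 0.47 (SD, n = 4; 4.38-fold; limma adjusted p = 0.0027) in HER. *TPM1* ranked 248 in LIM and 166 in HER.

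**Figure D2:**
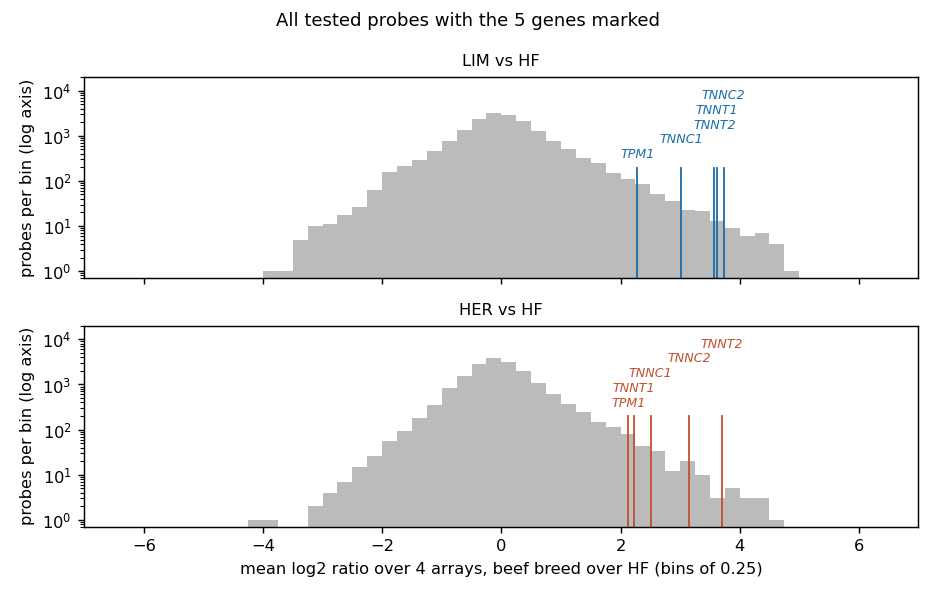
Number of tested probes (log axis) per bin of 0.25 of the mean log2 ratio over 4 arrays, beef breed over HF, for LIM (top) and HER (bottom), with lines at the 5 genes. All 5 lie in the upper tail, between 2.28 and 3.73 in LIM and between 2.13 and 3.70 in HER, while the median of all probes is -0.01 and -0.06.

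The mean of the LIM and HER ratios has each dye orientation equally, so a dye effect shared by the arrays cancels in it. This mean log2 ratio was 2.76 for *TNNC1*, 3.44 for *TNNC2*, 2.92 for *TNNT1*, 3.64 for *TNNT2*, and 2.21 for *TPM1*, with limma adjusted p between 4.93e-05 and 0.00046. All 5 were called higher, as were 17.7% of the tested probes, with 38.1% called in either direction. None of the 5 calls was lost under the 14 alternative settings or when any of the 8 arrays was left out. The fit treated the 8 arrays as independent although HF bulls recur among them, so the p-values of this mean can be too small.

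The LIM ratio was also compared with the HER ratio directly. The difference, LIM minus HER on the log2 scale, was largest for *TNNT1*, at 1.40 (95% interval -0.23 to 3.03; limma adjusted p = 0.41). It was 0.50 for *TNNC1* (95% interval -0.12 to 1.13; limma adjusted p = 0.439) and 0.58 for *TNNC2* (95% interval -0.42 to 1.59; limma adjusted p = 0.589). For *TNNT2* it was -0.13 (95% interval -0.99 to 0.74; limma adjusted p = 0.912), and for *TPM1* 0.15 (95% interval -0.64 to 0.95; limma adjusted p = 0.881). No member was called in limma, where 0.233% of all tested probes were. At an unadjusted p of 0.05 and the same fold, 0 of 5 members passed in limma, against 14.1% of all tested probes. The intervals include differences of more than 1 on the log2 scale for *TNNC1*, *TNNC2*, and *TNNT1*, so equal ratios in the 2 beef breeds were not shown.

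The brightness of each channel gave the levels behind the ratios, compared only within a probe. *TPM1* had a processed signal (background-subtracted and dye-normalized by the scanner software) of 21068 to 52163 in LIM against 4471 to 10904 in HF on the same arrays. On the HER arrays it was 9105 to 53233 against 2991 to 8213. *TNNC2* gave 5572 to 22728 in LIM against 515 to 1658 in HF, and 1741 to 9665 in HER against 140.2 to 1470.1 in HF. For both genes the beef and HF ranges did not overlap in either comparison.

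*TNNC1* gave 3120 to 9789 in LIM against 420.1 to 1197 in HF, and 690.2 to 4965 in HER against 104 to 887 in HF. The HER and HF ranges overlapped, through HER replicate 3, where both channels were at their dimmest. On the LIM arrays 5 of 5 genes had beef signals above every HF signal, as 13.9% of all tested probes did. On the HER arrays 3 of 5 did (*TNNC2*, *TNNT2*, and *TPM1*), against 7.6% of all tested probes.

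The probes of the genes for troponin T were dim in HF. *TNNT2* gave 288.1 to 1183 in LIM against 33.4 to 67.5 in HF, and 104 to 749 in HER against 5.005 to 56.9 in HF, without overlap. HF was not well above background on LIM replicate 3 and HER replicate 3. *TNNT1* gave 223.1 to 709 in LIM against 12.4 to 51.2 in HF, and 9.47 to 182 in HER against 4.13 to 45.7 in HF. Its HF channel was well above background on 2 of 4 arrays in each comparison, and on HER replicate 3 neither channel was.

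**Figure D3:**
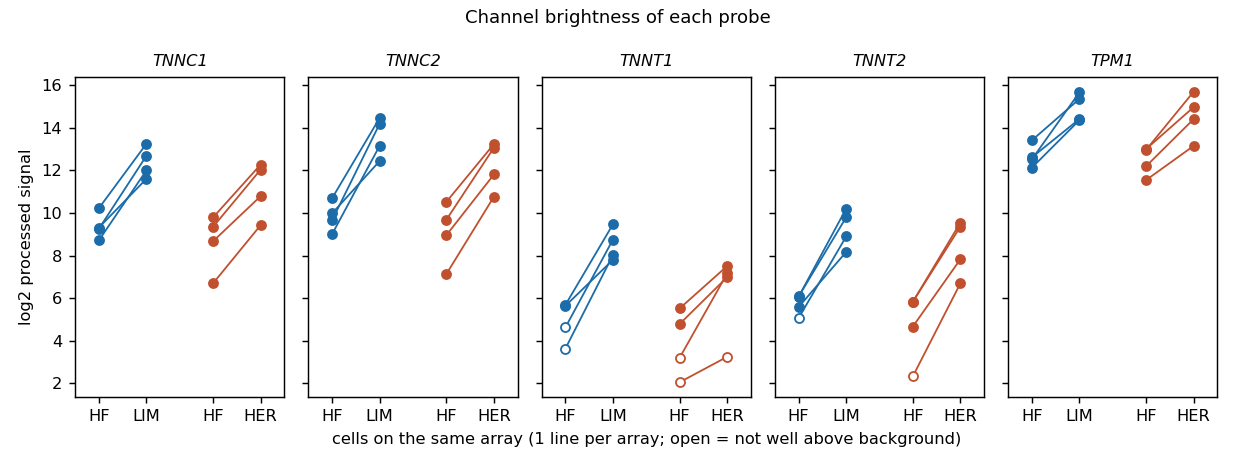
Log2 processed signal (vertical axis) of HF and beef cells on the same array, joined by 1 line per array, for LIM arrays (blue) and HER arrays (orange) in a panel for each gene; open circles were not well above background. Each line rises from HF to the beef breed, and open circles occur for *TNNT1* and *TNNT2* alone; heights are not compared between panels, which show different probes.

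After the arrays were set to a common distribution of mean brightness, the order of the levels was LIM, HER, HF on LIM arrays, HF on HER arrays for *TNNC1*, *TNNC2*, *TNNT1*, and *TNNT2*. For *TNNC2* these log2 levels were 13.30 ± 0.97, 12.49 ± 1.06, 9.57 ± 0.70, and 9.34 ± 1.27 (SD, n = 4 each). LIM and HER differed by less than their spread, as did HF on the LIM and HER arrays, while the lowest beef level, 11.34, was above the highest HF level, 10.53. For *TPM1* the order was HER at 14.80 ± 0.92, LIM at 14.72 ± 0.63, HF on HER arrays at 12.66 ± 0.64, and HF on LIM arrays at 12.43 ± 0.57 (SD, n = 4 each). Here too the neighbours within beef and within HF overlapped.

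The 2 spots of a probe on the same array differed by a median of 0.0710 in log2 ratio over the 40 pairs of spots. The median was 0.0194 for *TPM1*, 0.0361 for *TNNC2*, and 0.0734 for *TNNC1*, and it was larger for the dim probes, 0.278 for *TNNT2* and 0.528 for *TNNT1*. The largest gap was 1.46, for *TNNT1* on HER replicate 3, where the ratio of a spot was exactly 0.

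The size of the *TNNT1* and *TNNT2* ratios depended on how background was treated. With normexp correction after replacing marked local backgrounds, the log2 ratio of *TNNT1* was 1.48 in LIM and 0.75 in HER (limma adjusted p = 0.0548, not called), and that of *TNNT2* was 1.98 in LIM and 1.86 in HER. Without background correction *TNNT1* was at 1.85 and 1.02 and *TNNT2* at 2.35 and 2.20, all called. *TNNC1*, *TNNC2*, and *TPM1*, the brighter probes, moved by at most 0.33 on the log2 scale under both treatments.

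With normexp on the local backgrounds as measured, all 5 genes stayed called in LIM, and in HER none was called. The HER values were then 1.40 for *TNNC1*, 1.99 for *TNNC2*, 0.48 for *TNNT1*, 1.00 for *TNNT2*, and 1.80 for *TPM1*, with limma adjusted p from 0.165 to 0.305. No probe of the array was called in HER under that setting. With the methods' test on each comparison alone and adjustment over all probes, 2 genes kept their LIM call (*TNNC1*, *TNNT2*) and none its HER call. On HER replicate 3 the red local background of 38 spots exceeded 500. There, normexp on the local backgrounds as measured gave *TNNC2* a log2 ratio of 0.12. The scanner gave 3.63, and normexp after replacing marked backgrounds gave 3.102.

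**Figure D4:**
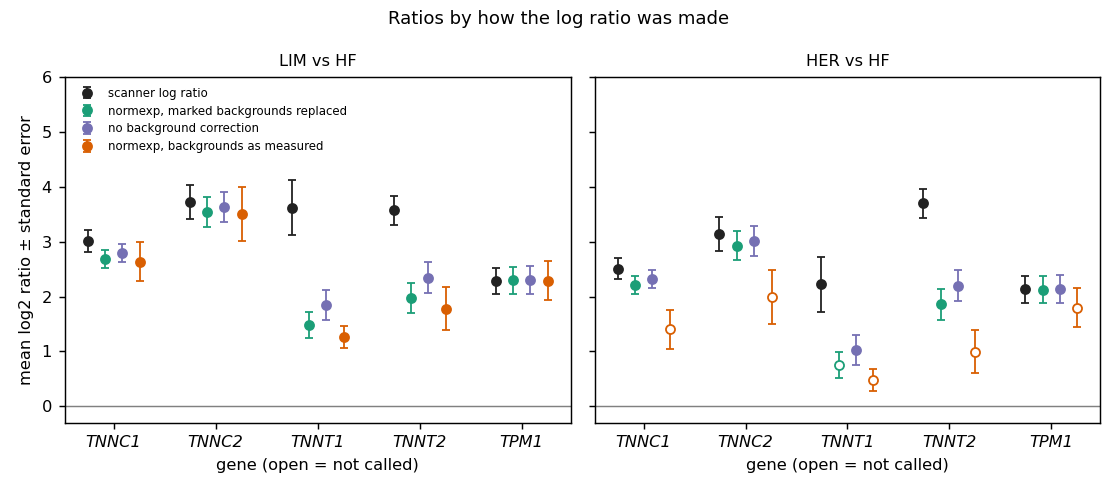
Mean log2 ratio ± standard error (vertical axis) of each gene (horizontal axis) in LIM (left) and HER (right) from 4 sources of the log ratio; open circles were not called. *TNNT1* and *TNNT2* are lower in every source other than the scanner log ratio, and in HER no gene is called with local backgrounds as measured.

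Slow, fast, and cardiac isoforms were compared on the same array, where the HF cells are shared. Of the 8 isoform pairs planned, 2 could be formed. *TNNC1* minus *TNNC2*, slow minus fast, was -1.10, -0.17, -0.86, and -0.74 on the LIM arrays and -0.74, -0.23, -0.90, and -0.69 on the HER arrays. The fast gene thus had the larger log2 ratio on every array, with a mean difference of -0.72 ± 0.40 (SD, n = 4) in LIM and of -0.64 ± 0.29 (SD, n = 4) in HER. Each gene was read by 1 probe, so in any pair a difference between genes cannot be told apart from a difference in probe response. In an exact two-sided sign-flip permutation test, 2 of 16 sign patterns were as extreme in each breed, the smallest p that 4 arrays allow, so no pair could pass 0.05.

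*TNNT2* minus *TNNT1*, cardiac and embryonic minus slow, was -0.05 ± 0.40 (SD, n = 4; exact p = 0.75) in LIM, with 2 of 4 arrays above 0. In HER it was 1.48 ± 1.63 (SD, n = 4; exact p = 0.25), from -0.24 on HER replicate 4 to 3.64 on HER replicate 3. In both breeds the mean was smaller than its spread, and on HER replicate 3 *TNNT1* was not well above background. With marked backgrounds replaced, the difference was above 0 on 4 of 4 arrays in each breed, at 0.50 ± 0.32 in LIM and 1.11 ± 0.32 in HER (SD, n = 4).

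By class, the per-array median was 3.32 ± 0.75 in LIM and 2.37 ± 0.68 in HER for the slow genes (*TNNC1*, *TNNT1*). It was 3.73 ± 0.90 and 3.15 ± 0.43 for the fast gene (*TNNC2*), and 2.93 ± 0.60 and 2.92 ± 0.19 for the others (*TNNT2*, *TPM1*; all SD, n = 4). The classes rest on 1 or 2 genes each and were not tested. Their ranges over arrays overlapped in both breeds.

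**Figure D5:**
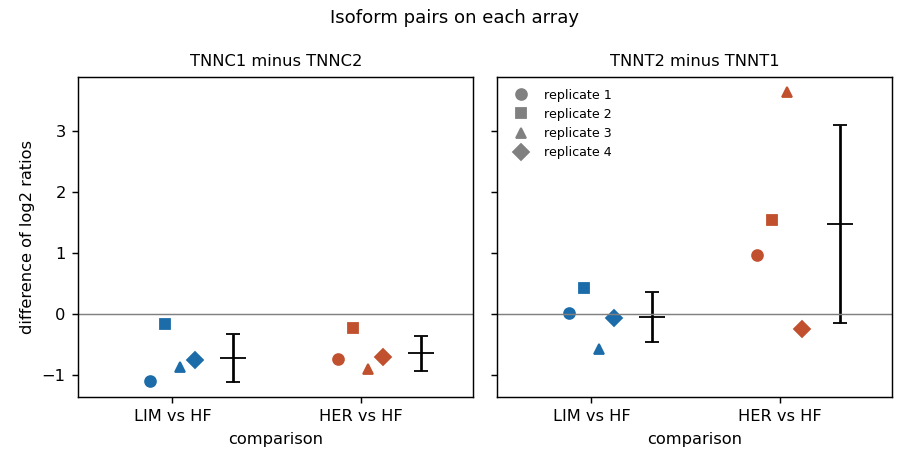
Difference of log2 ratios (vertical axis) between isoform genes on each array for LIM and HER (horizontal axis), with symbols for replicates and black bars for the mean ± SD. *TNNC1* minus *TNNC2* lies below 0 on all 8 arrays, between -1.10 and -0.17, and *TNNT2* minus *TNNT1* spreads from -0.57 to 3.64.

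Both families have further genes outside the 10. *TNNI3*, the cardiac troponin I, lay on the other side of 0: its log2 ratios were -2.40, -1.49, -1.24, and -0.31 in LIM and -1.71, -1.34, -0.62, and -0.20 in HER. It was below 0 on all 8 arrays, with a mean of -1.36 ± 0.86 (SD, n = 4; limma adjusted p = 0.0155, called lower) in LIM and -0.97 ± 0.68 (SD, n = 4; limma adjusted p = 0.0672, not called) in HER. The LIM call was lost without LIM replicate 1 (-1.01), LIM replicate 2 (-1.32), or LIM replicate 3 (-1.40), and in the methods' test on LIM alone, also unadjusted. Under other background treatments the values were nearer 0, at the least -0.54 in LIM and -0.19 in HER. *TPM4*, a tropomyosin of the cytoskeleton, was at 0.41 ± 0.37 in LIM and 0.08 ± 0.26 in HER (SD, n = 4; limma adjusted p = 0.0771 and 0.746), not called in either breed. Its LIM value was called in 5 alternative settings, and its HER value turned negative with local backgrounds as measured (-0.42) and with median centring (-0.26).

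Of 20 other thin filament genes, 9 were measured and tested, of which 4 rose and 1 fell (*TNNI3*) in LIM, and 5 rose and none fell in HER. Over all tested probes, 18.3% fell in LIM and 14% in HER. Their median log2 ratio was 0.55 in LIM and 0.96 in HER. The 4 called higher in both comparisons were *ACTA1*, the skeletal muscle actin (4.74 in LIM, 4.66 in HER), *ACTC1*, the cardiac actin (3.63, 3.03), *LMOD2*, a leiomodin that acts in actin filament assembly (3.99, 2.83), and *KLHL41*, a sarcomere-associated kelch protein (3.99, 3.71). *LMOD2* was not well above background in HF on any array, so it was tested through its beef channels alone, which favours a call as higher. The size of its ratio depended on the processing. Values were as low as 0.47 in LIM (median centring) and 0.27 in HER (local backgrounds as measured), neither called. *LMOD1*, the smooth muscle leiomodin, was called in HER only (0.96), and its difference between LIM and HER was not called (limma adjusted p = 0.264).

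Other genes of slow and fast fibres were counted in the same way, beside 7.54% of all tested probes called higher in both comparisons and 14% called lower in HER. Of 8 slow fibre genes, 6 were tested and 2 rose in both comparisons, *MYL2*, the slow regulatory myosin light chain, and *MYOZ2*, a Z-disc protein, with a list median of 0.29 in LIM and 0.47 in HER. Of 11 fast fibre genes, 6 were tested and 3 rose in both, *MYL1* (fast myosin light chain), *ATP2A1* (fast fibre calcium pump), and *MYH2* (fast myosin heavy chain), while *PVALB*, the calcium buffer parvalbumin, fell in HER. The fast list median was 1.09 in LIM and 0.89 in HER. *MYH2* was well above background in 3 LIM and 2 HER channels and in no HF channel, so it too was tested through its beef channels alone. Its HER ratio was above 0 on 3 of 4 arrays. *MYOZ2* was well above background in HF on 1 LIM array and on no HER array, so both ratios rest on HF signals near background. It was tested mainly through its beef channels. Both lists thus held called genes and genes near 0, such as *MYH7*, the slow myosin heavy chain, at 0.22 in LIM and 0.31 in HER, which was not called.

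The troponin and tropomyosin ratios stood beside differences in markers of several cell types, whose counts are read against 16% of all tested probes called higher and 18.3% lower in LIM, and 10.4% higher and 14% lower in HER. Of 12 genes of muscle cells and their differentiation, 8 were tested and 6 rose in each comparison (*MYF5*, *MYOG*, *MYF6*, *DES*, *CDH15*, *ITGA7*), with a median of 1.84 in LIM and 1.39 in HER. *MYOG*, the differentiation factor myogenin, was at 2.04 and 2.07, and *MYOD1*, at 0.88 and 1.12, was not called in either comparison but was called in the mean of both (1.00). *CKM*, the muscle creatine kinase, was well above background in 3 LIM channels and in no HER or HF channel. The summed brightness of the 9 muscle genes on the array, on the common brightness scale, was 38479 to 115807 in LIM against 14159 to 57927 in HF, and 49353 to 98448 in HER against 16814 to 52892 in HF.

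Fibroblast markers also differed: of 9 tested, 6 rose and 1 fell (*PDGFRA*) in each comparison, with a median of 1.89 in LIM and 1.37 in HER. Their summed brightness was 429498 to 690565 in LIM against 63328 to 247483 in HF, and 462018 to 588909 in HER against 76681 to 230089 in HF. Of 5 smooth muscle and pericyte genes 2 rose in each, of 5 adipocyte genes 1 rose and 1 fell in each, and of 2 leukocyte genes 1 rose in each. The median log2 ratio of the 5 adipocyte genes was 0.96 in LIM and -0.39 in HER. Their summed brightness weights the brightest probes most. It was lower in the beef cells, at 16932 to 51015 in LIM against 102092 to 126154 in HF. For HER it was 43146.5 to 65253 against 71408 to 109674 in HF. None of 2 endothelial genes and none of 3 genes of dividing cells was called in limma in LIM or in HER, while *BUB1*, a mitotic checkpoint kinase, was called lower in the mean of both (-0.65). The part of these markers in the troponin and tropomyosin ratios was not tested.

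LIM replicate 2 was the lowest LIM array for 5 of 5 members and for 5 of 8 muscle markers, against 25.9% of the 2829 probes called higher in LIM. It was the lowest for 1 of 9 fibroblast markers, for which LIM replicate 4 was the lowest in 8. LIM replicate 4 was also the lowest for 45.9% of the probes called higher in LIM. In HER the lowest array of a member was replicate 1 for 2 genes, replicate 2 for 1, and replicate 3 for 2. The HER muscle markers went otherwise, with replicate 1 the lowest for 4 of 8 and replicate 4 for 4 of 8. HER replicate 4 was the lowest for 6 of 9 fibroblast markers and for no member. Of the 1833 probes called higher in HER, replicates 1 to 4 were the lowest for 12.1%, 8.35%, 20.9%, and 58.6%. No LIM call of a member was lost when any single array was left out.

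The genes whose log2 ratios were nearest those of 3 members over the 8 arrays were also found, by the root mean square (RMS) difference from each other named, tested probe. Nearest *TNNC1* were *DES*, the intermediate filament desmin (RMS 0.396; 2.91 in LIM and 2.47 in HER), *CDH15*, the muscle cadherin (0.575), and *PGAM2*, the muscle phosphoglycerate mutase (0.59). Nearest *TNNT2* were *CHRNG*, the fetal acetylcholine receptor gamma subunit (0.414; 3.42 in LIM and 3.27 in HER), *TNNC2* (0.46), and *KLHL41* (0.5). Nearest *TPM1* were *CDH15* (0.404), *DDX6*, an RNA helicase (0.432), and *PRKG1*, a cGMP-dependent kinase (0.458). These distances share arrays and HF cells and are a description with no test.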

How the data were processed

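The authors deposited, per array, Agilent Feature Extraction 10.7.3.1 output: per the file headers, a log10 ratio (red to green, background-subtracted and dye-normalized by that software), processed signals, and median spot and background intensities. The deposited series table, also a log10 ratio, held identical values. Of the deposited intensity columns, the processed signals gave the levels and the medians served only for alternatives.

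The log10 ratio was turned to log2 beef over HF (sign turned on HER arrays), leaving out control and outlier-marked spots, and the spots of a probe were averaged. A probe was tested if well above background in 4 or more of the 16 channels, using limma 3.58.1 in R 4.3.3 with all 8 arrays in 1 model. Per array, each channel had 68.8% to 85.2% of probes well above background, no spot was saturated, and precision is limited by the number of arrays. Gene names came from RefSeq accessions (assembly ARS-UCD2.0; 7793 of 20693 accessions matched), so unmatched genes may still be on the array. Members, lists, and tests were chosen with earlier results of these data known. On simulated data for 17631 probes, 46% of probes changed by 1 on the log2 scale were recovered for LIM and 54% for HER. Of those changed by 2, 98% and 97% were recovered. Far fewer probes were changed in the simulation than were called in the data (34.3% in LIM, 24.4% in HER). These shares therefore need not hold for the data. Named were all members, other thin filament genes called in both comparisons, and, of the other lists, counts with examples chosen after their values were seen.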

Additional observations from a re-analysis of the deposited data

How the results depend on the processing

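The probes called numbered 6056 (LIM), 4302 (HER), 6723 (mean of both), and 41 (LIM minus HER). With local backgrounds as measured they numbered 0 (HER), 3289 (mean), and 0 (LIM minus HER). The 5 HER values were then 1.40, 1.99, 0.48, 1.00, and 1.80, none called, *TNNT2* LIM minus HER was 0.78, *TPM4* in HER was -0.42, and *TNNT2* minus *TNNT1* in LIM was 0.51. With marked backgrounds replaced, *TNNT1* in HER was 0.75 (not called), *TNNT2* LIM minus HER 0.12, *TNNT2* minus *TNNT1* in LIM 0.50, the slow class 2.08 (LIM) and 1.48 (HER), the other class 2.13 and 1.99, and 1 probe was called for LIM minus HER. The HER calls then split 1633 higher to 1346 lower, against 1833 to 2469 from the scanner log ratio. Without background correction the split was 1817 to 1480, 1 probe was called for LIM minus HER, and *TNNT2* LIM minus HER was 0.15.

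With marked backgrounds replaced and median centring in place of loess, the median of all probes in LIM was 0.32, and 11316 (LIM), 2315 (HER), and 8505 (LIM minus HER) probes were called. The LIM calls split 7552 higher to 3764 lower, against 2395 to 2197 with loess on the same backgrounds and 2829 to 3227 from the scanner log ratio. *TNNT1* in HER was 0.78 (not called), *TPM4* in HER -0.26, and LIM minus HER was 1.27 for *TNNC1*, 1.45 for *TNNC2*, and 1.06 for *TPM1*, all called, and 0.40 for *TNNT2*. The mean of both split 4813 to 1728, against 2471 to 2037 with loess and 3127 to 3596 from the scanner. Scaling between arrays gave 12 calls for LIM minus HER and turned it to -0.20 for *TNNC1*, -0.31 for *TNNC2*, and -0.35 for *TPM1*. LIM minus HER gave 76 calls with no filter, 1 with at least 8 channels, 2482 at the unadjusted threshold of the methods, and 256 with array weights.

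The methods' t-test on each comparison alone, after adjustment, called 1002 probes in LIM and 2 in HER. Under it *TNNC2* (3.73), *TNNT1* (3.62), and *TPM1* (2.28) lost their LIM call, with adjusted p between 0.0522 and 0.058 by that test, and all 5 genes lost their HER call (2.51, 3.15, 2.22, 3.70, 2.13).

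The labels number arrays in both comparisons, but arrays with the same number did not deviate together throughout (r = -0.24, 0.13, 0.30, and 0.54), nor did every array correlate best with its own number. With the replicate number as a block, the counts were 6357, 4302, and 7013, with 0 for LIM minus HER. No member's call changed, and *TNNI3* in HER was called.

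With each array left out in turn, calls ranged from 3796 to 7011 (LIM, lowest without LIM replicate 3), from 1527 to 5439 (HER, at 1574, 1527, and 2660 without HER replicates 1, 2, and 3), and from 1 to 14 (LIM minus HER, each of the 8 arrays). *TNNT1* in HER ranged from 1.64 to 2.72. LIM minus HER ranged from -0.32 to 0.20 for *TNNT2* (above 0 without HER replicate 3 or LIM replicate 2) and from -0.14 to 0.35 for *TPM1* (below 0 without HER replicate 3 or LIM replicate 1), and *TPM4* in HER from -0.030 (without HER replicate 1) to 0.18. The mean of both was kept for all 5 members throughout. The cause of these changes was not tested. A mean over several probes was not run, as each gene has 1 probe. *TNNT1* and *TNNT2* are limited by HF signals near background.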
